A study of Mus musculus with 35 samples.

Results

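The comparison described here was made in spermatocytes, the meiotic germ cells of the testis, and sets mice lacking Smg6 in the germline against their controls by polyadenylated long RNA. Its members were all 6 spermatocyte libraries of the deposited gene and transposable element count table, 3 cKO and 3 control, out of 35 samples in the series. Of the 24411 genes in that table, 17321 had at least 10 counts in at least 3 of the 6 libraries and were tested. The cKO mice were Smg6 fx/fx with a Cre transgene driven by the Ngn3 promoter (Ngn3Cre+), which is active in early spermatogonia, and exon 9 of Smg6 was the floxed exon. The controls were Cre-negative littermates with floxed alleles, fx/fx or fx/wt, and both genotypes were adult mice on a mixed C57Bl/6J and SV129 background with no treatment. The cells were enriched by sedimentation through a BSA gradient and scored by nuclear staining, so they were enriched populations and not a sort by a marker. The series' design text gives both testes of a mouse for each library, whereas the study's methods describe cells isolated from several testes, so these sources do not settle whether mice were pooled. The p-values measure the spread between the 3 libraries per genotype, whatever each library held.

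Nonsense-mediated RNA decay (NMD) removes transcripts on which translation ends in an unusual setting, most often upstream of an exon junction complex or ahead of a long 3'UTR. UPF1 marks such transcripts, SMG1 phosphorylates it, and the endonuclease SMG6 then cuts the RNA close to the stop codon. Well studied substrates are the spliced host transcripts of small nucleolar RNAs (snoRNAs), splicing factor mRNAs that include a "poison" exon, and stress mRNAs with upstream reading frames. Spermatocytes pair and recombine their chromosomes, silence the X and Y chromosomes in the sex body, and already transcribe many genes whose proteins serve after meiosis.

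The sequence removed by Cre is shown first, because the counts used here are per gene and do not resolve it. Exon 9 of the annotated Smg6 transcript ENSMUST00000045281 (exon 9 of 19; GRCm38, plus strand, chr11:74981852-74981913) is 62 nt long and entirely coding. It reads as follows, with no part capitalised.
Smg6 exon 9: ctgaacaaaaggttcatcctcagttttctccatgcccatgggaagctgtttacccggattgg
Its length is 2 bases over a multiple of 3, so that splicing exon 8 to exon 10 shifts the reading frame. The joined sequence below holds the last 30 bases of exon 8 followed by the start of exon 10, with the stop codon of the shifted frame in capitals.
Exon 8 to exon 10: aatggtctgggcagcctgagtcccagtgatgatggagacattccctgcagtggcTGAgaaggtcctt
The full reading frame has 1418 codons, of which 886 end before exon 9, and the shifted frame ends after 8 more codons with 9 exon junctions downstream of its stop. Smg6 normalised read counts were 8198, 8569 and 8188 in cKO and 8374, 7888 and 5207 in control, and the groups overlapped (log2 fold change 0.22 with an SE of 0.17, adjusted p = 0.361). A count summed over the gene includes all the exons outside the deletion, so it does not check the genotype.

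The 6 libraries held 38129415 to 49940226 counts, of which 94.04% to 95.51% lay on genes. The first principal component of the 500 most variable genes carried 72.2% of the variance and separated the genotypes, with control 1 and cKO 3 at its ends. Spermatocyte markers were at similar summed levels in all libraries, 5903 to 6763 CPM (counts scaled to the TMM-adjusted total of the library) in cKO and 6467 to 6621 CPM in control, and 2 of the 12 fell, or 1 without any cKO library or control 3. Control 1 stood apart in late spermatid markers and Sertoli cell markers, with values given beside the results that they touch.

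In the cKO, 2431 genes were higher (14.0% of those tested) and 2448 were lower (14.1%) at an adjusted p of at most 0.05 in edgeR's quasi-likelihood test. "Rose" and "fell" are used below for genes that passed this test. A gene was called when it also changed by at least 1.5 on the log2 scale, which gave 591 genes called higher (3.41%) and 884 called lower (5.1%). The median log2 fold change over all genes was -0.01 with quartiles of -0.39 and 0.37, and this is the background against which the gene groups below are read. The genotypes did not overlap in 8261 genes (47.7%), including 99.8% of those called higher and 99.7% of those called lower. A lack of overlap named below is therefore common and does not by itself set a gene apart. Counts for a group are over its tested members, since the 7090 genes below the filter were left out. All values per library are given in the order 1, 2, 3 as counts scaled to a common library size. Changes named for single genes are log2 fold changes of cKO over control, with standard errors (SE) from the fit.

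**Figure D1:**
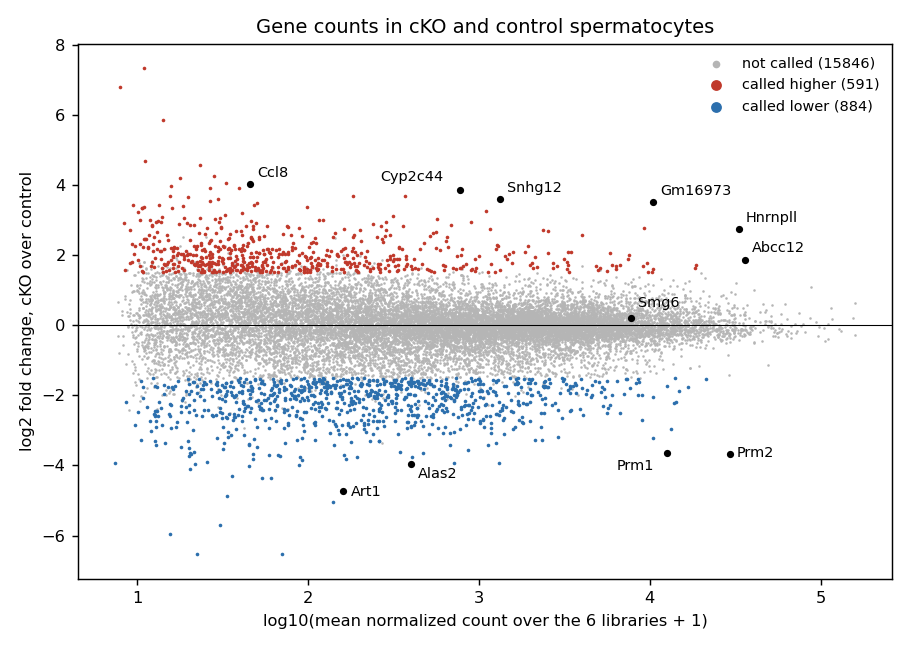
Log2 fold change of cKO over control (vertical axis) against the mean normalised count of the 6 libraries on a log10 scale (horizontal axis), 1 point per gene tested, with the 591 genes called higher in red and the 884 called lower in blue. Genes called higher crowd at low counts, while Hnrnpll, Abcc12 and Gm16973 stand out at high counts and Smg6 lies near 0.

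Most host transcripts of snoRNAs, a well known class of NMD substrates, rose in the cKO. Of the 17 tested, 10 rose and none fell, with a median log2 fold change of 0.95 against -0.01 for all genes. These transcripts carry snoRNAs in their introns, and the spliced RNA that remains has only short reading frames. Snhg12 had normalised read counts of 2381, 2182 and 2739 in cKO and 167, 203 and 233 in control, a 12.1-fold difference (log2 fold change 3.60 with an SE of 0.17, adjusted p = 0.000126). Snhg7 had 1040, 919 and 833 in cKO and 129.6, 140.4 and 179 in control (log2 fold change 2.63 with an SE of 0.18, adjusted p = 0.000387). In both genes the lowest cKO library was several times above the highest control. Snhg5 followed with 2393, 2248 and 2119 in cKO and 447, 690.4 and 575 in control (log2 fold change 1.98 with an SE of 0.17, adjusted p = 0.0009). Gas5, a much studied host transcript of this kind, had 3612, 2951 and 2929 in cKO and 1043, 1577 and 1566 in control (log2 fold change 1.18 with an SE of 0.18, adjusted p = 0.00634), and its groups did not overlap either. The rises of Snhg6, Snhg17, Snhg11, Snhg8, Snhg1 and Snhg10 were 1.85, 1.63, 1.28, 1.21, 0.95 and 0.83 on the log2 scale. Among those that did not pass, Snhg3 was at 0.04 (adjusted p = 0.953) and Dancr at -1.46 (adjusted p = 0.123). With any 1 library omitted 8 rose, and 1 fell without cKO 2. Summed over the list, these host transcripts took 334, 309 and 299 CPM in cKO 1 to 3 and 94.7, 132 and 118 CPM in control 1 to 3.

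Several mRNAs of RNA-binding splicing regulators also rose, with a few members far above the rest. Hnrnpll, which encodes a regulator of exon choice known from lymphocytes, had the strongest statistical support of the genes named here, at 60070, 56206 and 56410 in cKO and 8295, 8672 and 9072 in control, 6.63-fold higher (log2 fold change 2.73 with an SE of 0.07, adjusted p = 1.65e-05). Ptbp2, a polypyrimidine tract binding protein whose transcript is a known NMD substrate when 1 exon is skipped, had 21441, 18543 and 17952 in cKO and 7281, 7739 and 8506 in control (log2 fold change 1.30 with an SE of 0.10, adjusted p = 0.000472). In both genes the libraries of a genotype lay close together and far from the other genotype. Of the 20 hnRNP and PTB factors tested, 6 rose and 2 fell, and the median was 0.10. The other rises were of Hnrnph3 (0.77), Hnrnpl (0.59), Hnrnpa2b1 (0.57) and Hnrnph1 (0.36), and Hnrnpab (-0.37) and Hnrnpa3 (-0.22) fell. The 2 falls became 0 without cKO 3 or control 3 and 1 without any other library. SR proteins bind exonic enhancers and regulate their own mRNAs through poison exons. The list of SR and related splicing factors, which also holds Clk1 and Clk4, had 7 of 14 members higher and none lower, with a median of 0.34. Srsf7 had 11953, 10702 and 10754 in cKO and 4751, 5283 and 5500 in control (log2 fold change 1.10 with an SE of 0.09, adjusted p = 0.000583). It was followed by Srsf3 (0.86), Srsf4 (0.68), Srsf9 (0.50), Srsf11 (0.42), Tra2b (0.35) and Srsf2 (0.33). The changes in the SR list were below the size needed for a call in each of its members.

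The NMD factors themselves moved by smaller steps. Of the 12 tested, 5 rose and 1 fell, with a median of 0.23, and none reached the size of a call. Upf2, which links UPF1 to the exon junction complex, had 7331, 8540 and 7442 in cKO and 4546, 4256 and 4279 in control (log2 fold change 0.83 with an SE of 0.09, adjusted p = 0.00169), and its libraries did not overlap between genotypes. Upf1, the central helicase, rose by 0.67, Smg9 and Smg1 of the kinase complex by 0.58 and 0.35, and Nbas by 0.37. Upf3a fell (-0.24, adjusted p = 0.0474), but no factor fell when any library was omitted. Genes of the exon junction complex and its associated factors had a median of 0.05. A rise of Magohb (0.54, adjusted p = 0.0432) was the sole change among 9, and none of the 9 passed when any library was omitted. Among 29 genes of general mRNA decay, 6 rose and 1 fell, at a median of 0.06. Without cKO 3 or control 2 the rises in this list numbered 3, and without control 3 they numbered 2. The list was led by Pan2 (0.82), the catalytic subunit of a deadenylase, and Exosc10 (0.69), a nuclear exosome nuclease, and Exosc3 fell (-0.43). No gene of the list fell without cKO 1, cKO 3 or control 3, and 2 fell without control 2.

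**Figure D2:**
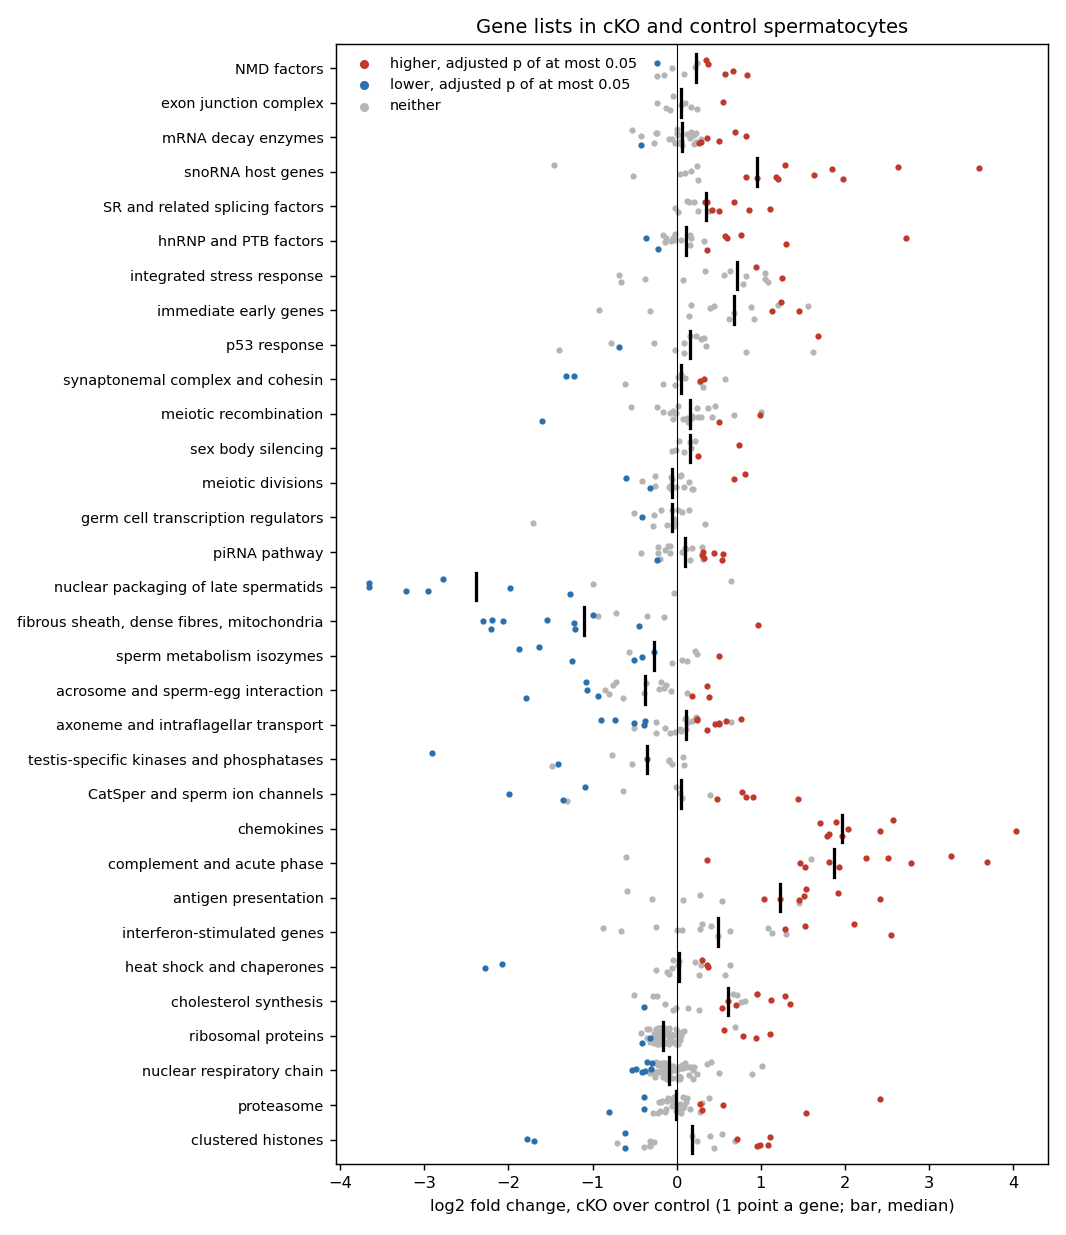
Log2 fold change of cKO over control for each tested member of the gene lists, 1 point per gene, coloured by whether it passed the test and in which direction, with a bar at the list's median. The bars of snoRNA host genes, chemokines and complement genes lie to the right, those of late spermatid packaging and sheath genes to the left, and ribosomal proteins cluster near 0.

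Among stress genes, the transcription factors Atf4 and Ddit3 of the integrated stress response rose. Ddit3, which encodes CHOP, had 7594, 7197 and 6927 in cKO and 3021, 3076 and 2998 in control, with both genotypes tightly grouped (log2 fold change 1.26 with an SE of 0.07, adjusted p = 0.000198). Atf4, translated through upstream reading frames and an inducer of Ddit3, had 4794, 4693 and 4382 in cKO and 1882, 2826 and 2522 in control (log2 fold change 0.94 with an SE of 0.15, adjusted p = 0.00707). These were the only 2 of 14 members of that list to pass, and none fell, while the list's median was 0.71. Without control 2 the number that rose was 6, and without control 1 the number that fell was 1. Of 15 genes of the p53 response, Pmaip1, which encodes the pro-apoptotic protein NOXA, rose, with 474, 507 and 483 in cKO and 118, 156 and 181 in control (log2 fold change 1.68 with an SE of 0.20, adjusted p = 0.00291). Zmat3 fell (-0.68), Cdkn1a was at -0.27 (adjusted p = 0.626) and Mdm2 at 0.16 (adjusted p = 0.113), and the median was 0.16. Immediate early genes, which respond quickly to signals and to tissue handling, had 3 of 15 members higher, namely Ier3 (1.46), Fos (1.24, adjusted p = 0.0446) and Dusp1 (1.13), with none lower. Their summed level was 426, 427 and 606 CPM in cKO 1 to 3 and 226, 471 and 297 CPM in control 1 to 3, so that control 2 lay among the cKO libraries. The 3 rises became 7 without control 2, 1 without control 1 and 0 without cKO 1, cKO 3 or control 3, and 1 gene fell without cKO 2. Of 17 heat shock and chaperone genes 3 rose and 2 fell, and the falls of Hspa1l (-2.28) and Hspb1 (-2.08) were the largest. The rises became 1 without cKO 1 or cKO 3 and 0 without control 3, and the falls 1 without cKO 1, control 1 or control 3.

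Outside these lists, the largest gains in CPM came from a few abundant transcripts. Gm16973, an annotated lincRNA (GRCm38, minus strand, chr14:56696280-56701268), had 19569, 18489 and 19491 in cKO and 1486, 1671 and 1890 in control, an 11.4-fold difference (log2 fold change 3.51 with an SE of 0.10, adjusted p = 3.36e-05). Abcc12 and Abca17 encode transporters of the ABC family, and Ranbp17 a protein of the nuclear export receptor family. Abcc12 had 55618, 59643 and 54632 in cKO and 14890, 15868 and 15795 in control (log2 fold change 1.87 with an SE of 0.07, adjusted p = 6.39e-05). Ranbp17 had 30264, 26988 and 27724 in cKO and 8776, 8121 and 9229 in control (log2 fold change 1.70 with an SE of 0.08, adjusted p = 0.000126). Abca17 had 22893, 35085 and 24729 in cKO and 8811, 9166 and 8930 in control, with cKO 2 above its group (log2 fold change 1.62 with an SE of 0.16, adjusted p = 0.00143). Together with Hnrnpll these were the 5 called genes with the largest rise in CPM, a measure that also grows with transcript length. Each of the 5 kept an adjusted p of at most 0.05 when any single library was left out, with 0.0124 the highest.

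The 12 highest log2 fold changes among called genes that averaged 100 or more normalised counts and did not overlap between genotypes included Snhg12, Gm16973 and 2 further noncoding RNAs. These were 4933438B17Rik, a lincRNA (2.94), and 2310030A07Rik, annotated as antisense (2.99). Of the protein-coding genes among them, Lipi, a phospholipase, had 396, 348 and 270.5 in cKO and 28.4, 21.3 and 28.3 in control (log2 fold change 3.70 with an SE of 0.26, adjusted p = 0.000387). Cyp2c44, a cytochrome P450, rose by 3.85, Ces1g, a carboxylesterase, by 3.00, Olah, a thioesterase of fatty acid synthesis, by 2.87 and A830018L16Rik by 2.95. The remaining 3, Serpina3n, C3 and Lrg1, encode secreted plasma proteins and are taken up with the immune genes.

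**Figure D3:**
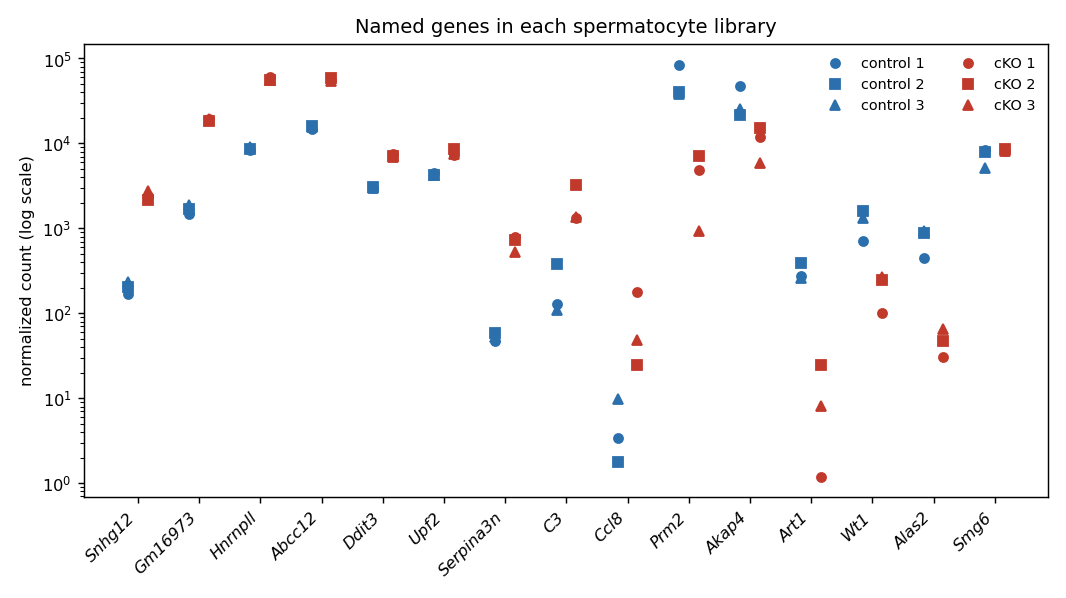
Normalised read counts (vertical axis, log scale) of 15 genes in each of the 6 libraries, with controls in blue and cKO in red and the replicate number given by the symbol. Genotypes are far apart for Snhg12, Gm16973 and Hnrnpll, Prm2 spreads widely within each genotype, and Smg6 overlaps.

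Genes of meiosis itself moved little. In the synaptonemal complex and cohesin list the median was 0.05 over 13 genes, with 2 higher and 2 lower, and in meiotic recombination 0.15 over 26 genes, with 2 higher and 1 lower. Msh5, which stabilises crossover intermediates, had 1654, 1640 and 1682 in cKO and 794, 871 and 834 in control (log2 fold change 0.99 with an SE of 0.10, adjusted p = 0.00147), and no cKO library overlapped a control. Mei1, needed for double-strand breaks, rose by 0.50. M1ap, another crossover gene, fell (-1.60, adjusted p = 0.0129), as did Syce2 of the central element (-1.31, adjusted p = 0.0179) and the cohesin Rec8 (-1.22, adjusted p = 0.0284). Stag3 (0.32) and Sycp2 (0.28) rose. Among 9 genes of sex body silencing, Scml2 (0.74), a Polycomb protein of germ cells, and Setdb1 (0.26), a histone methyltransferase, rose and none fell. Regulators of the meiotic divisions had a median of -0.06 over 19 genes, with Ccnb3 (0.81) and Cdc25c (0.68) higher and Plk1 (-0.60) and Ccna1 (-0.31) lower. Of 15 transcription regulators of germ cells only Tbpl1 passed, with a fall (-0.42). These small counts rested on single libraries. In the synaptonemal complex list the rises became 1 without cKO 1 or control 2 and 0 without control 3, and the falls 0 without cKO 1 or cKO 3. In the recombination list the rises became 1 without cKO 1, cKO 2, cKO 3 or control 2, and the falls 0 without cKO 1 and 2 without control 2. The rises of the sex body list became 0 without cKO 1, cKO 3 or control 3 and 1 without any other library. Of the division regulators 2 rose without control 1 and 0 without any other library, and the falls became 0 without cKO 1 and 1 without cKO 2 or control 3. Of the transcription regulators 0 fell without cKO 3 and 2 without cKO 2.

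The piRNA pathway, which guides PIWI proteins to transposon and messenger RNA, had 6 of 22 genes higher and 1 lower, at a median of 0.10. The rises were of Pnldc1 (0.54), which trims piRNA ends, of the Tudor proteins Tdrd12 (0.54), Tdrd5 (0.44) and Tdrd9 (0.32), and of Exd1 and Mov10l1. Ddx4, the germ cell RNA helicase, fell (-0.24). Piwil4, a PIWI gene that is not on the list, was called higher (1.57). Without cKO 1 or cKO 3 the number of list members that rose was 3, and without control 3 it was 1. The fall of Ddx4 was lost without any cKO library, control 1 or control 3, and 2 genes of the list fell without control 2.

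Transcripts of late spermatids were lower in the cKO libraries by the widest margins of any germ cell group. Of the 10 genes listed for packaging of the late spermatid nucleus, 7 fell and none rose, with a median of -2.38. The list includes Brdt and Ctcfl, which are not packaging proteins, and Brdt was at -0.03 (adjusted p = 0.76). Prm2, a protamine, which packs DNA in place of histones in sperm, had 4848, 7099 and 929 in cKO and 84734, 40228 and 37812 in control (log2 fold change -3.66 with an SE of 0.73, adjusted p = 0.0138). Prm1 had 2294, 2909 and 389.7 in cKO and 37244, 17357 and 15840 in control (log2 fold change -3.66 with an SE of 0.73, adjusted p = 0.0141). For both genes control 1 was the highest and cKO 3 the lowest library, and the groups did not overlap. Without cKO 1 the adjusted p of both lost the threshold, at 0.0594 for Prm1 and 0.0616 for Prm2. Tnp1 (-3.22), Tnp2 (-2.96), Prm3 (-2.78), H1fnt (-1.98) and Hils1 (-1.27), which encode transition proteins, a protamine and spermatid linker histones, fell as well. Without cKO 1 the number of falls in this list was 1 in place of 7.

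Structural genes of the sperm tail followed, with 9 of 14 lower, 1 higher and a median of -1.11. Spata18, a protein of sperm mitochondria, had 1803, 2524 and 1077 in cKO and 13505, 6126 and 6920 in control (log2 fold change -2.30 with an SE of 0.40, adjusted p = 0.00908). Oaz3 (-2.21), the spermatid antizyme, Smcp (-2.19), a mitochondrial capsule protein, Odf1 (-2.06), of the outer dense fibres, and Akap4 (-1.54, adjusted p = 0.0307), the main fibrous sheath protein, fell too. Without cKO 1 the number of falls was 1, without cKO 3 or control 3 it was 4, and without control 1 it was 5. Odf4, by contrast, had 22748, 24266 and 21103 in cKO and 11811, 11336 and 11595 in control and rose (log2 fold change 0.97 with an SE of 0.07, adjusted p = 0.00046), with its 3 controls close together. The sperm isozymes of metabolism had 6 of 13 lower and 1 higher, with Gapdhs (-1.87), Aldoart1 (-1.64) and Aldoart2 (-1.25) of glycolysis lower and the sodium-proton exchanger Slc9c1 (0.51) higher. The 6 falls of that list became 2 without cKO 1 or without cKO 3, and its 1 rise became 3 without control 1.

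Other sperm gene groups were split. In the acrosome list 4 of 20 fell, namely Adam1a (-1.79), the sperm hyaluronidase Spam1 (-1.08), Izumo3 (-1.06) and Spaca4 (-0.94), while Dpy19l2 (0.38), needed to anchor the acrosome, Adam3 (0.36) and Adam2 (0.18) rose. In the axoneme list 8 of 29 rose, among them Cfap69 (0.77) and the dynein heavy chains Dnah17 (0.59), Dnah1 (0.50) and Dnah2 (0.50), and 5 fell, among them the tektins Tekt5 (-0.91), Tekt2 (-0.73) and Tekt1 (-0.51). In the list of CatSper and other sperm ion channels, Catsperb, an auxiliary subunit of the calcium channel CatSper, had 17070, 17108 and 15624 in cKO and 8778, 9017 and 8808 in control and rose (log2 fold change 0.91 with an SE of 0.07, adjusted p = 0.000443). Hvcn1 (1.45), a proton channel, Catsperg2 (0.82), Catsperg1 (0.78) and Catsperd (0.48) rose with it, while the pore subunit Catsper3 (-1.35), Efcab9 (-1.08) and the sodium pump Atp1a4 (-1.99) fell. Of 11 testis kinases and phosphatases 3 fell, Tssk6 (-2.91), Tssk2 (-1.42) and Prkaca (-0.36), and none rose. These counts were sensitive to single libraries. The 4 falls of the acrosome list became 0 without cKO 1, 1 without cKO 3 or control 3, 2 without control 1 and 6 without control 2. Those of the axoneme list, 5 in the whole set, became 0 without cKO 3, 1 without cKO 1, 2 without control 3 and 3 without control 1 or control 2, and its 8 rises became 5 without control 3. The 3 rises of the acrosome list became 1 without cKO 1, cKO 3, control 2 or control 3. The 3 falls of the CatSper list became 0 without cKO 1 or control 3, 1 without control 1 and 5 without cKO 2, and those of the kinases 0 without cKO 1 and 1 without cKO 3.

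The markers of elongating spermatids, which share Prm1, Prm2, Tnp1, Tnp2 and the main tail genes with the lists above, summed to 1100, 1586 and 479 CPM in cKO 1 to 3 and 9091, 4313 and 4359 CPM in control 1 to 3. All 11 tested fell, at a median of -2.30, but without cKO 1 the number that fell was 1. Round spermatid markers summed to 1265, 1401 and 1079 CPM in cKO 1 to 3 and 2045, 1365 and 1476 CPM in control 1 to 3, so control 2 lay inside the range of the cKO, and 4 of 12 fell, with a median of -0.76. That number was 1 without cKO 3 and 0 without cKO 1, control 1 or control 3. The elongating spermatid sum holds many of the packaging and tail genes, so a shared direction was fixed by the overlap of the lists. The part of cells of stages beyond the labelled one in these falls was not tested. In bulk samples fewer cells of a type and less RNA per cell cannot be told apart.

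Among the 12 lowest log2 fold changes chosen by the same rule as the highest, Prm1 and Prm2 stood with genes expressed late in spermatogenesis and with genes of other kinds. Art1, an ADP-ribosyltransferase, had 1.19, 24.9 and 8.01 in cKO and 279, 387 and 261 in control (log2 fold change -4.72 with an SE of 0.69, adjusted p = 0.00561), and its groups were far apart although the cKO counts were low. Alas2, the erythroid enzyme of haem synthesis, had 30.9, 47.7 and 65.0 in cKO and 449, 881 and 924 in control (log2 fold change -3.96 with an SE of 0.39, adjusted p = 0.00147). The RIKEN genes 1700009J07Rik (-3.93), 1700012A03Rik (-3.93) and 1700008P02Rik (-3.81) were joined by Ttc24 (-3.77), Dydc2 (-3.76), Bpifa3 (-3.65) and the pseudogene Hmgb1-rs17 (-3.62), which may share reads with near-identical copies. Of these, the 3 RIKEN genes, Ttc24 and Bpifa3 missed the threshold without cKO 1, at adjusted p values of 0.0523 to 0.0596. Dnah11, a ciliary dynein, had 15.4, 18.9 and 33.8 in cKO and 761, 75.5 and 68.4 in control (log2 fold change -3.70 with an SE of 1.05, adjusted p = 0.0389), where control 1 alone was far above the other controls. Without control 1 the change of Dnah11 was -1.63, and its adjusted p missed the threshold on omission of any cKO library, at up to 0.133 without cKO 1. The 5 largest falls in CPM were of Prm2, Prm1, Tnp2, Akap4 and Gsg1, a germ cell membrane protein (-1.76). Each of the 5 missed the threshold without cKO 1, at adjusted p values of 0.0594 to 0.0951.

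Complement and acute phase genes had 10 of 12 higher and none lower, with a median of 1.86. Serpina3n, a protease inhibitor of the acute phase, had 782, 731 and 530.3 in cKO and 46.6, 58.6 and 52.8 in control (log2 fold change 3.69 with an SE of 0.22, adjusted p = 0.000231). C3, the hub of the complement cascade, had 1326, 3264 and 1350 in cKO and 127, 380.3 and 109 in control, with cKO 2 and control 2 the highest of their groups (log2 fold change 3.26 with an SE of 0.60, adjusted p = 0.0107). Lcn2, which withholds iron from bacteria, had 16311, 13750 and 18140 in cKO and 811, 3119 and 3084 in control (log2 fold change 2.78 with an SE of 0.47, adjusted p = 0.00862). All of these cKO libraries lay above all controls, and the summed list was at 592, 554 and 639.7 CPM in cKO 1 to 3 and 87.2, 174 and 155 CPM in control 1 to 3. Serping1 (2.52), the C1 inhibitor, rose too, and so did Lrg1 (3.12), a secreted glycoprotein that is on none of the lists. Without control 3 the number of rises in the list was 5.

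Chemokines showed the same direction at low counts. Of 17 listed, 9 could be tested and 9 rose, with a median of 1.96. A gene could enter the test by its cKO counts alone, as Cxcl2 did, so the filter in part fixes this count. Without the filter 13 of 17 rose and none fell. Ccl8 had 178, 24.9 and 48.9 in cKO and 3.41, 1.78 and 9.77 in control, the widest spread of the group (log2 fold change 4.03 with an SE of 0.94, adjusted p = 0.0213). Cxcl2 (2.57), Ccl3 (2.42) and Ccl2 (2.04), which attract neutrophils and monocytes, followed. Their sum was 47.9, 41.5 and 53.5 CPM in cKO 1 to 3 and 8.83, 16.3 and 12.4 CPM in control 1 to 3, so no cKO library overlapped a control. Without cKO 1 the number that rose was 3, and without control 3 it was 4.

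Genes induced by interferon were more divided. Of 17 tested, 4 rose and none fell, at a median of 0.49. Cxcl10 had 116, 226 and 125 in cKO and 13.6, 46.2 and 18.6 in control (log2 fold change 2.55 with an SE of 0.51, adjusted p = 0.0141). Ifit3, a cytoplasmic RNA-binding antiviral protein, had 29.7, 12.9 and 19.6 in cKO and 6.82, 2.67 and 4.88 in control, few counts in any library (log2 fold change 2.10 with an SE of 0.50, adjusted p = 0.0226). Its controls were all below the 10 counts of the filter, so it entered the test through its cKO counts. Bst2 (1.52) and Gbp2 (1.29) rose, and without control 3 the number that rose was 1. Oasl2 was at 0.00 (adjusted p = 0.999) and Mx1 at -0.24 (adjusted p = 0.68). The promoters of Cxcl10 and Ifit3 are printed because these 2 genes had the largest changes of the list. They run from 250 bases before to 50 bases after the start of the RefSeq gene (GRCm38.p6), at chr5:92348840-92349139 on the minus strand and chr19:34583279-34583578 on the plus strand. Capitals mark matches, on either strand, to the interferon-response core GAAANNGAAA, where N is any base, and to the AP-1 motif TGANTCA.
Cxcl10 promoter: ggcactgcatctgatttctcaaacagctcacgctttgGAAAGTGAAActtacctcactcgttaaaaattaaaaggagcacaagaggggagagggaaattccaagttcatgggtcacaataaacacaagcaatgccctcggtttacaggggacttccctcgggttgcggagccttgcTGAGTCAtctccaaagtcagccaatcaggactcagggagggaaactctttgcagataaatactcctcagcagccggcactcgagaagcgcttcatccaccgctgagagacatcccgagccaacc
Ifit3 promoter: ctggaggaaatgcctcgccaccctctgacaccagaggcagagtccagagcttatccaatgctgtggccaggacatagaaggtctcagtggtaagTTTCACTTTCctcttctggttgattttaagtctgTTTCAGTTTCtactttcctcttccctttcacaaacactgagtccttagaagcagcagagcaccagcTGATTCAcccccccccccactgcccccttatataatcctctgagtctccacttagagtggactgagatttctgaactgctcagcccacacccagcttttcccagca
Of 16941 promoters of the same length, 2.84% held the interferon core and 5.81% TGANTCA. A match describes the letters in the window and does not identify a bound site.

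Antigen presentation genes had 7 of 13 higher and none lower, with a median of 1.22. Cd74, the invariant chain of class II, had 201, 157 and 177 in cKO and 62.5, 37.3 and 42.0 in control (log2 fold change 1.92 with an SE of 0.27, adjusted p = 0.00525). The immunoproteasome subunits Psmb8 (2.42) and Psmb9 (1.53), the peptide transporter Tap2 (1.51), H2-Eb1 (1.45), B2m (1.23) and H2-D1 (1.04) also rose, and H2-K1 was at 0.07 (adjusted p = 0.709). The 7 rises became 1 without cKO 1 and 3 without cKO 3 or control 3. Without any one cKO library 11 members could be tested, and without any one control 13. Some members thus entered the test by their cKO counts alone, and the filter in part fixes the count of rises. Reads of the class I genes H2-D1 and H2-K1 may be shared between near-identical copies.

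Macrophage and Leydig cell markers are given beside these immune genes, since the cells of the interstitium express many of them. Of 15 macrophage markers 11 rose and 2 fell, with a median of 1.59. Csf1r, the receptor of the macrophage growth factor, had 509.5, 418 and 577 in cKO and 176, 116 and 85.0 in control (log2 fold change 2.00 with an SE of 0.29, adjusted p = 0.00569), with no overlap. Cd163 (2.50), Lyz2 (2.33) and C1qa (2.17) rose. Aif1, a calcium-binding protein, had 1741, 2953 and 967 in cKO and 7744, 3656 and 4246 in control and fell (log2 fold change -1.47 with an SE of 0.44, adjusted p = 0.0451), as did Mrc1 (-1.21). The sum of the list, 322, 177 and 162 CPM in cKO 1 to 3 and 331, 168 and 263 CPM in control 1 to 3, overlapped between genotypes, and Aif1 and Fcgr3 contributed to it, Fcgr3 having 8190, 1937 and 1947 in cKO and 4436, 1330 and 4841 in control. The 11 rises became 5 without cKO 1 and 6 without control 3, and the 2 falls became 0 without either of these and 1 without any other library. Leydig cell markers summed to 1091, 758 and 1477 CPM in cKO 1 to 3 and 261, 622 and 519 CPM in control 1 to 3, and 3 of 11 rose and 1 fell, with a median of 1.36. Insl3, the Leydig peptide hormone, had 12702, 9736 and 13824 in cKO and 987, 4447 and 3573 in control (log2 fold change 2.01 with an SE of 0.49, adjusted p = 0.025), with control 1 the lowest. Cyp11a1 (1.69) and Hsd17b3 (1.61) rose, Scarb1 (-0.80) fell, and Cyp17a1 was at 1.36 (adjusted p = 0.0669). The 3 rises became 0 without cKO 1, cKO 3 or control 3, 2 without control 1 and 7 without cKO 2. The part of interstitial cells in the rise of the immune genes was not tested.

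**Figure D4:**
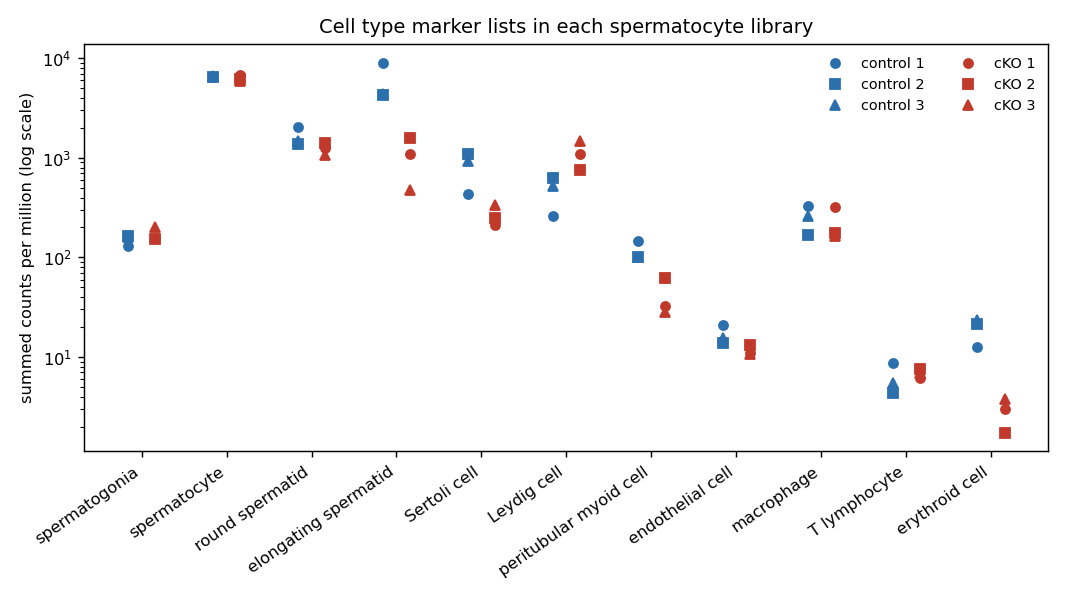
Summed CPM (vertical axis, log scale) of the marker list of each cell type in each of the 6 libraries, with controls in blue, cKO in red and the replicate number given by the symbol. Spermatocyte markers are level at 5903 to 6763 CPM, elongating spermatid and Sertoli cell markers are lower in every cKO library, and Leydig cell markers are higher in every cKO library.

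Sertoli cell markers were lower in the cKO. Of 17 tested, 15 fell and none rose, at a median of -2.19, and 9 of them passed whichever library was omitted. The lowest number of falls, also 9, came without cKO 1. Wt1, a transcription factor that Sertoli cells require, had 101, 249 and 266 in cKO and 707, 1582 and 1321 in control (log2 fold change -2.55 with an SE of 0.43, adjusted p = 0.00862). Inhbb (-2.77), Sox9 (-2.53) and Clu (-1.51) fell in parallel. The list summed to 211, 250.3 and 333 CPM in cKO 1 to 3 and 434, 1103 and 936 CPM in control 1 to 3, so every cKO library lay below every control, with control 1 the lowest control. Peritubular myoid markers summed to 32.7, 61.8 and 28.1 CPM in cKO 1 to 3 and 145, 101 and 101 CPM in control 1 to 3 and 2 of 8 fell, with a median of 0.09. Endothelial markers had a summed level of 10.8, 13.1 and 10.8 CPM in cKO 1 to 3 and 20.7, 13.8 and 15.4 CPM in control 1 to 3, and 1 of 7 fell. Both sums were lower in every cKO library than in any control. T lymphocyte markers had one of 6.18, 7.51 and 6.91 CPM in cKO 1 to 3 and 8.67, 4.31 and 5.48 CPM in control 1 to 3, which overlapped, with 2 of 5 higher and 1 lower. The few calls of these 3 lists were lost in part, without control 3 in full, when libraries were omitted. Of 7 erythroid markers 4 could be tested, of which Alas2 fell and none rose, with a median of 0.17. They summed to 2.98, 1.73 and 3.82 CPM in cKO 1 to 3 and 12.5, 21.3 and 23.4 CPM in control 1 to 3, a sum that Alas2 dominated in the controls. The globin genes Hba-a1 and Hba-a2, which are near-identical and so uncertain, were at 0.46 (adjusted p = 0.592), and Hbb-bs was at -0.12 (adjusted p = 0.904).

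Spermatogonial markers overlapped between genotypes, at 155, 153 and 202 CPM in cKO 1 to 3 and 132, 164 and 159.7 CPM in control 1 to 3. Of 14, Ret (1.19), the receptor for GDNF, and Sall4 (0.98) rose and Etv5 (-1.67), a target of GDNF signalling, fell, with a median of 0.34. DESeq2 gave 6 rises with all libraries kept, and without cKO 3, control 2 or control 3 edgeR gave 1. No marker of this list fell without cKO 1 or control 3.

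Cholesterol synthesis had 7 of 21 genes higher and 1 lower, with a median of 0.61. Tm7sf2 (1.34), a sterol reductase, Nsdhl (1.12) and Mvd (0.96) were among those that rose, and Fdft1 (-0.38) fell. The number that rose was 2 without cKO 1, cKO 3 or control 3, 4 without control 1 or control 2, and 11 without cKO 2. No gene of the list fell without any one cKO library or control 3, and 2 fell without control 1. The list summed to 1047, 970.3 and 1079 CPM in cKO 1 to 3 and 1184, 994 and 1031 CPM in control 1 to 3, which overlapped, with control 1 the highest. Nuclear genes of the respiratory chain had a median of -0.10, with 7 of 78 lower and none higher, and proteasome genes one of 0.00, with 5 of 38 higher and 3 lower. The proteasome list includes the immunoproteasome genes Psmb8 and Psmb9, its 2 members called higher, which were counted under antigen presentation as well. Clustered histones had 5 of 21 higher and 4 lower, with Hist2h2ab (1.11) and Hist1h4a (-1.78) at the ends. Most histone mRNAs lack a poly(A) tail and several are near-identical, so these counts are uncertain. The 7 falls of the respiratory chain became 1 without cKO 3 or control 3, 2 without cKO 2 or control 1, 3 without control 2 and 4 without cKO 1. The 5 rises of the proteasome became 1 without cKO 1, cKO 3 or control 3 and 2 without cKO 2, and its 3 falls became 0 without cKO 3 or control 3 and 1 without cKO 1 or cKO 2. The 5 rises of the histones became 1 without cKO 1 or cKO 3, 2 without cKO 2, control 2 or control 3 and 3 without control 1, and their 4 falls became 1 without cKO 1, cKO 3 or control 3.

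Ribosomal proteins had a median of -0.16, with 4 of 76 higher and 2 lower, and the rises lay mainly on the X chromosome. Of the 4 X-linked members 3 rose, Rps4x (1.10), Rpl10 (0.95) and Rpl36a (0.79), and the median of the 4 was 0.87. Rps4x had normalised read counts of 739, 454 and 762 in cKO and 177, 365 and 365 in control (log2 fold change 1.10 with an SE of 0.33, adjusted p = 0.0447), with cKO 2 near the controls but not overlapping them. Of the 72 others, Rpl10a (0.57) rose and Rpl17 (-0.41) was among those that fell, at a median of -0.17. The 4 rises became 1 without cKO 1, cKO 3 or control 3 and 2 without control 1. The 2 falls became 13 without cKO 1, 1 without control 2 and 0 without any of the others. Many of these genes have processed copies in the genome that can take reads.

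Genes on the X chromosome had a higher median change than autosomal genes, while their summed level was lower, in large part through Akap4. The 696 X-linked genes had a median log2 fold change of 0.21, with quartiles of -0.44 and 0.74, against a median of -0.02 for 15851 autosomal genes. Of the X-linked genes 41 were called higher (5.89%) and 59 lower (8.48%), against autosomal shares of 3.34% and 4.84%. X-linked genes had lower counts, with a median of 143 against 566 for autosomal genes. Among genes below the median level of all genes tested, 7.01% of X-linked and 5.83% of autosomal genes were called higher and 8.03% and 6.74% lower, and their median changes were 0.29 and 0.02. The 111 X-linked genes above that level had a median of -0.18, with 20 lower and 7 higher, and the autosomal genes there one of -0.04. Summed X-linked counts were lower in every cKO library, at 4681, 4680 and 5249 CPM against 6458, 5521 and 5637 CPM in the controls. Akap4 alone averaged 256 CPM in cKO and 745 CPM in control, so the separation of the sums depends on this gene. On the Y chromosome 36 genes were tested, 7 rose and none fell, and the median was 0.46.

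**Figure D5:**
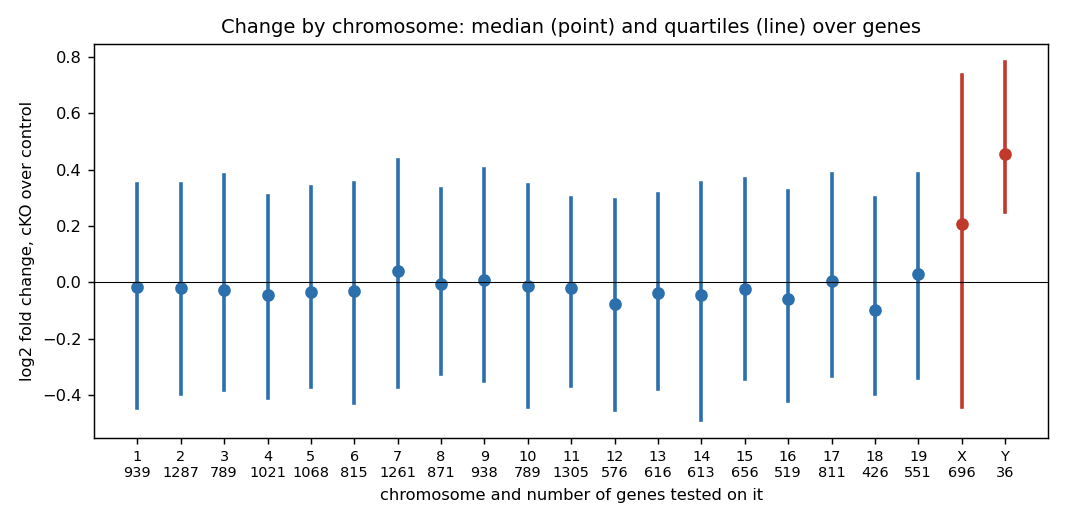
Median (point) and quartiles (line) of the log2 fold change of cKO over control for the genes of each chromosome, with the number of genes tested given under its name and the sex chromosomes in red. The autosomal medians lie near 0, while X is at 0.21 and Y at 0.46.

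Features of the gene models were compared for the share of genes that passed. Protein-coding genes with at least 1 transcript annotated as NMD (3948 genes) rose in 17.9% and fell in 11.6%, with a median of 0.04. Coding genes with several transcripts and none so annotated (9397 genes) rose in 13.3% and fell in 14.7%, with a median of -0.03. The first class had a higher median count, 1090 against 566, and it was formed after the values were seen. Genes with a 3'UTR over 1500 nt rose in 12.1% and fell in 15.0%, with a median of -0.06, and those under 350 nt rose in 15.6% and fell in 15.0%, with a median of 0.00. The 6097 genes between these lengths rose in 15.4% and fell in 12.8%, with a median of 0.03. Coding genes with a single exon fell in 24.6%, against 13.8% of those with more exons. Long noncoding RNAs, at 1079 genes, were called lower in 9.73%, and the 1386 genes named after RIKEN clones in 10.8%, against 5.1% of all genes tested. They fell in 15.2% and 19.1%, against 14.1% of all genes. Their median counts were lower, at 128 and 235 against 512.

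Calls also depended on level. Of the genes called higher, 53.8% lay in the lowest of 5 equal classes of mean count, under 65.5 normalised counts, where 9.18% of genes were called higher and 6.7% lower. In the highest class, above 3040, these shares were 0.866% and 1.73%.

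Genes that the study had also measured by RT-qPCR were Fos, Lpxn and Fkbpl. Lpxn, a focal adhesion protein, rose by 0.84 (adjusted p = 0.00431) and Fkbpl, an immunophilin-like protein, fell (-0.53, adjusted p = 0.0379). The change of Fos, given above, was between 0.97 and 1.71 in the fits without a single library, but its adjusted p reached 0.128 without control 3. With all libraries kept and a block for the replicate number, the adjusted p of Fos was 0.0607. The adjusted p of Fkbpl reached 0.117 without cKO 3.

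The changes differed in how far they rested on single libraries. Of the 591 genes called higher, 251 (42.5%) passed the adjusted p whichever of the 6 libraries was omitted, as did 289 of the 884 called lower (32.7%) and 1518 of all genes tested (8.76%). By group, 8 of the 10 snoRNA host genes that rose, 5 of the 7 SR genes and 4 of the 5 NMD factors did so, against 1 of the 11 elongating spermatid markers and 1 of the 7 nuclear packaging genes. Among the genes called higher, cKO 3 was the highest cKO library in 56.7%, against 33.0% of all genes, while among those called lower, control 1 was the highest control in 49.9%, against 40.6%, and the lowest control in 46.4%, against 43.1%. In the lower class cKO 3 was the lowest cKO library in 45.5%, against 38.0%.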

How the data were processed

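Polyadenylated RNA of pachytene spermatocytes was sequenced as paired reads on a stranded library. Adapters were cut by the authors with cutadapt 2.8, the GRCm38 alignment came from STAR (2.7.1a per the submitters' notes), and TEtranscripts in its reverse-stranded setting gave the counts. The deposited table that was used holds whole-number counts per gene under UCSC symbols and per transposable element subfamily, and only its gene rows were tested. A second deposited table holds expected counts per transcript, not always whole because the authors' featureCounts 2.0.1 run shared a read among the features it overlapped. It served only as an alternative, after summing per gene and rounding. The authors used DESeq2 for their comparisons, and their own gene table was not analysed here.

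Genes with at least 10 counts in at least 3 of the 6 libraries were TMM-scaled, and edgeR 4.0.16 compared the genotypes (two-sided quasi-likelihood test, p-values adjusted by Benjamini-Hochberg over all 17321 genes) in R 4.3.3. Normalised read counts are counts divided by the scaled library size. The SE is the size of the log2 fold change divided by the square root of its F statistic. Calls needed a change of 1.5 or more in size on the log2 scale and an adjusted p of at most 0.05. Groups of 3 against 3 cannot go below p = 0.1 in an exact permutation test, so no such test is given for single values. Tested on simulated counts of 17321 genes with 200 changed by a log2 fold change of 2, the fit recovered 81% of them, and 9.5% of its hits were unchanged genes. Replicates of a group differed by more than sampling noise, with chi-square per degree of freedom from 18.3 to 83.

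The members and the gene lists were chosen with earlier results of these data known, so counts over a list are descriptions. Named genes are Smg6; of each list at most 4 members with the largest log2 fold change among those that passed, and any member a statement turns on; among called genes with a mean count of at least 100 and no overlap, the 12 highest and 12 lowest changes; the 5 called genes in each direction with the largest difference in CPM; and Fos, Lpxn and Fkbpl. List members named beyond the first 4, Lcn2, Fcgr3, Piwil4 and genes given as not passing were chosen after their values were seen. Gene features came from GENCODE vM21 (GRCm38), matched by symbol for 95.7% of genes tested, and promoters from RefSeq (GRCm38.p6). Only 78.2% of genes tested had a promoter, so a comparison of motifs between called and other genes is void and is not given. Alternatives were library size or relative log expression scaling, no count filter, DESeq2 1.42.0, summed transcript counts, a block for the replicate number, and omission of each library in turn. Python 3.11.15, pandas 2.3.3 and matplotlib 3.10.9 did the rest. A few list members are not reported here.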

Additional observations from a re-analysis of the deposited data

How the results depend on the processing

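The 4879 genes that passed, 591 called higher and 884 called lower, stayed within 1.5 times under each alternative that kept all libraries: 3768 to 6159 passed, 532 to 716 were called higher and 847 to 1036 lower. With a library left out, 2042 to 4234 passed, 321 to 588 were called higher and 329 to 1131 lower. The drops beyond 1.5 times came without cKO 1 (2042 passed, 321 higher, 329 lower), without cKO 3 (2706 passed, 342 higher) and without control 3 (2058 passed, 330 higher, 490 lower). The share of calls that were higher was 40.1%, and 32.2% to 49.4% with a library left out. Deviations of same-numbered libraries correlated at 0.17, -0.103 and 0.269, and those of other pairs at -0.418 to 0.298. These deviations are centred within each genotype, so the values do not settle whether replicate numbers pair the libraries. With the replicate number as a block, 3768 genes passed, 532 were called higher and 847 lower.

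Of 1925 values of 162 named genes under the alternatives, none changed direction and 298 missed the threshold that the gene had passed, 35 of them with all libraries kept. Most of the 162 were picked for large or passing changes, so a reversal was unlikely beforehand. List members named beyond the first 4 were not added to them. List medians moved by more than the spread in 25 of 528 values, 4 of them with all libraries kept: summed transcript counts gave 1.19 for snoRNA host genes and -1.92 for erythroid markers, and no count filter gave 1.11 for interferon-stimulated genes and 0.02 for clustered histones. The cause was not tested. With 3 libraries per genotype, each omission leaves fewer samples to the test. Depth was not varied. DESeq2, with all libraries kept, gave 6 rises in place of 2 among spermatogonial markers, 8 in place of 3 among Leydig cell markers, 12 in place of 7 in cholesterol synthesis, 4 in place of 2 in the integrated stress response and in meiotic recombination, and 5 in place of 3 among immediate early genes, and 9 falls in place of 4 in the acrosome list, 8 in place of 4 among round spermatid markers and 5 in place of 3 among testis kinases. The block for the replicate number gave 3 rises in place of 6 in mRNA decay and in the piRNA pathway, 0 in place of 2 among division regulators, 1 in place of 4 among ribosomal proteins, 2 in place of 5 among histones and 3 in place of 5 in the proteasome, and 3 falls in place of 7 in the respiratory chain and 2 in place of 4 in the acrosome list. Summed transcript counts gave 1 fall in place of 4 among histones, no count filter gave 3 rises in place of 5 among histones and 4 falls in place of 7 in the respiratory chain, and scaling by library size alone gave 3 falls in place of 1 in the piRNA pathway and 4 in place of 2 among ribosomal proteins. The fall in cholesterol synthesis became 0 under DESeq2, relative log expression scaling and summed transcript counts, and that of the piRNA pathway became 0 under the last 2 and with no count filter. Other list counts of 2 or fewer moved as well. With the block for the replicate number Dnah11 had an adjusted p of 0.0933 and Fos one of 0.0607.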
